A study of Mus musculus with 8 samples.

Results

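The cyclin-dependent kinase (CDK) inhibitor genes of the CIP/KIP and INK4 families were examined in mouse blood stem cells with and without a conditional Huwe1 deletion. They were taken by symbol and are 7 of the 23358 genes in the count table: Cdkn1a, Cdkn1b and Cdkn1c (CIP/KIP), and Cdkn2a, Cdkn2b, Cdkn2c and Cdkn2d (INK4). Of these, 5 passed the filter on low counts and were tested among 14086 genes, and Cdkn2a and Cdkn2b did not pass. The cells were hematopoietic stem cells from bone marrow with the sort phenotype Lin-Sca+Kit+CD48-CD150+, used uncultured. There were 3 wild type libraries, 3 libraries labelled Huwe1 KO (Mx1-Cre) and 2 labelled Huwe1 KO (Vav-Cre). Huwe1 encodes a large ubiquitin ligase. Mx1-Cre is driven by an interferon-responsive promoter and deletes upon induction, in blood cells and in other tissues, and Vav-Cre is active constitutively in blood cells. The labels give no inducing agent, age or sex, and no Cre for the wild type mice, so a Cre or induction effect and a Huwe1 effect cannot be told apart.

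CDK inhibitors hold back the kinases that drive a cell from rest through division. CIP/KIP proteins bind CDKs together with their cyclins, and INK4 proteins bind CDK4 and CDK6 alone and keep them from D-type cyclins. In blood stem cells p57, the product of Cdkn1c, is known for its part in keeping the cells at rest, and p18, the product of Cdkn2c, for limiting their self-renewal. The protein p21, from Cdkn1a, is a classical product of p53 activity. The comparisons ask whether the transcripts of these inhibitors differ with Huwe1 deletion, and whether p21, p57 and p18 transcripts differ in the same direction.

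Total counts were 28689765 to 33202926 per library. The Huwe1 level was 398 to 490 CPM (read counts scaled to library size, with TMM factors between libraries) over all 8 libraries. Against wild type its log2 fold change was -0.01 ± 0.11 (SE) with Mx1-Cre and 0.15 ± 0.13 with Vav-Cre. The table has 1 count per gene and cannot show the loss of single exons, so the knockout labels were not checked by it. All 12 stem cell markers examined had counts in all 8 libraries. Procr and Fgd5 were among those that fell in edgeR in the Mx1-Cre libraries, and Fgd5 fell in the Vav-Cre libraries too. The median log2 fold change of the 12 was -0.55 with Mx1-Cre, with 3 positive, and 0.13 with Vav-Cre, with 8 positive. Markers of other cells were present too. The summed level of 7 myeloid progenitor markers was 454 to 726 CPM in wild type, 171 to 220 with Mx1-Cre and 161 to 392 with Vav-Cre. Their median log2 fold change was -1.33 with Mx1-Cre, with 7 negative, and -1.84 with Vav-Cre, with 6 negative. In Vav-Cre 2, the library with the sum of 392, Prtn3 gave 220 CPM, against 68.8 to 89.9 in wild type. The summed level of 12 neutrophil and monocyte markers was 625 to 1528, 397 to 898 and 357 to 579 CPM. That of 8 megakaryocyte markers was 1209 to 1594, 720 to 949 and 540 to 927 CPM. In it Mmrn1 averaged 548, 184 and 251 CPM and Vwf 191, 54.4 and 112, and edgeR called both lower with Mx1-Cre. The median log2 fold change of the 8 was -0.21 with Mx1-Cre, with 3 positive, and -0.63 with Vav-Cre, with 1 positive. Sums for 7 erythroid markers were 86.5 to 179, 116 to 264 and 16.3 to 44.4 CPM. For 6 B cell markers they were 64.2 to 83.2, 52.8 to 66.7 and 35.5 to 71.7 CPM. Of these Cd79b alone gave 61.1 to 77.7, 48.6 to 49.7 and 33.8 to 70.6. For 7 T and NK cell markers the sums were 108 to 170, 91.0 to 123 and 56.996 to 97.2 CPM. Nearly all of that was Nkg7, at 101 to 166, 87.7 to 122 and 52.7 to 90.1. The T cell genes Cd3g and Cd3d had 8 and 25 reads over all 8 libraries. Ms4a1 and Ebf1 were at 0 in the Vav-Cre libraries, and Cd3e and Cd8a in both knockout lines. All 4 were near 0 in wild type too. Wild type libraries 1, 2 and 3 had 0, 0 and 1 reads of Cd3e and 0, 0 and 3 of Cd8a. They had 13, 0 and 29 reads of Ms4a1 and 21, 0 and 11 of Ebf1. The hemoglobin genes Hba-a1 and Hbb-b1 had no count in any library. The part of these other cells in the results below was not tested. Whether each library is a different animal is not in the labels, so the p-values rest on the variation among these samples, which may be technical. In such bulk samples fewer cells of a type and less RNA per cell cannot be told apart.

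With both knockout lines averaged, the p18 transcript Cdkn2c rose and the p57 transcript Cdkn1c fell. The p21 transcript Cdkn1a was higher than in wild type in all 5 knockout libraries but missed the threshold there, and passed it in the Mx1-Cre libraries alone. Thus 2 of 5 tested inhibitor genes were called with both lines averaged, against 2.65% of all tested genes. Of these 1 was higher, against 0.547%, and 1 was lower, against 2.10%. In the Mx1-Cre libraries 2 of 5 were called, against 2.49%, again 1 higher (0.390% of tested genes) and 1 lower (2.10%). In the Vav-Cre libraries edgeR called 0 of 5, against 0.511% (0.192% higher and 0.319% lower). There 2 of the 5, Cdkn1a and Cdkn2c, had an unadjusted p under 0.05, as had 13.4% of all tested genes. DESeq2, which called more genes than edgeR in every comparison, called 593 there against 72 in edgeR. Among the 5 it called 1, Cdkn2c. Both lines were set against the same 3 wild type libraries, so their values are given side by side and are not independent.

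**Figure D1:**
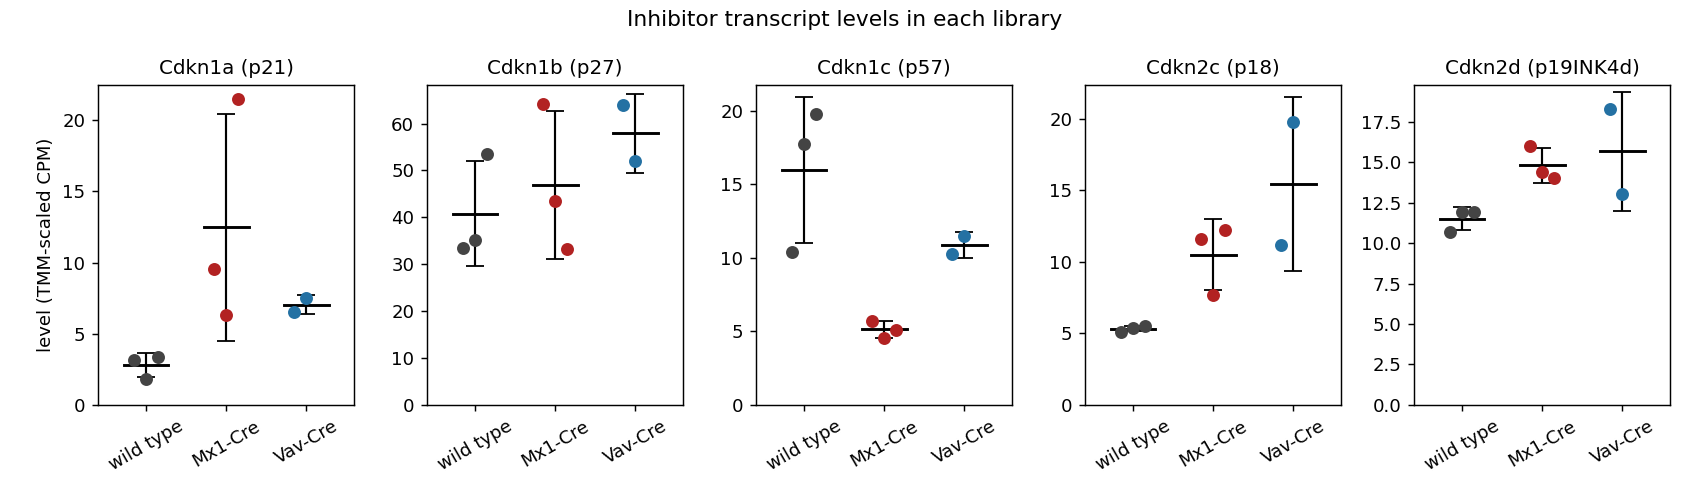
Level of each tested inhibitor transcript (TMM-scaled CPM, linear axes from 0) in every library, 1 point each, with the group mean and SD as bars (n = 3, 3 and 2). All knockout libraries lie above wild type for Cdkn1a, Cdkn2c and Cdkn2d, the Mx1-Cre libraries lie below it for Cdkn1c, and the groups overlap for Cdkn1b.

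Cdkn1a encodes p21, which binds and inhibits cyclin-CDK2 complexes. On GRCm38 it lies on chromosome 17 from 29090976 to 29100727 on the plus strand. Its level was 3.17, 1.84 and 3.39 CPM in wild type libraries 1, 2 and 3, 9.57, 6.35 and 21.5 in Mx1-Cre libraries 1, 2 and 3, and 6.55 and 7.50 in Vav-Cre libraries 1 and 2. Every knockout library was above every wild type library, and Mx1-Cre 3 was far above the rest. The group means were 2.80 ± 0.840 (SD, n = 3), 12.5 ± 7.99 (n = 3) and 7.03 ± 0.671 CPM (n = 2). In the Mx1-Cre libraries Cdkn1a rose 4.45-fold (95% interval 2.24 to 8.84, edgeR adjusted p = 0.0352). In the Vav-Cre libraries it was 2.51-fold wild type (1.21 to 5.21, edgeR adjusted p = 0.256). With both lines averaged it was 3.34-fold (1.77 to 6.32, edgeR adjusted p = 0.0554), and DESeq2 called it there with adjusted p = 0.000762. The call in the Mx1-Cre libraries was lost without any 1 of the 3 wild type libraries (edgeR adjusted p = 0.0952, 0.159 and 0.117), without Mx1-Cre 1 (0.0768) and without Mx1-Cre 3 (0.0837). Without Mx1-Cre 3 the log2 fold change went from 2.15 to 1.51. An antisense gene model, AC167363.2, overlaps a Cdkn1a exon by 261 bases, and unstranded libraries cannot tell its reads apart.

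Because Cdkn1a is a textbook p53 target, the 250 bases before each of its 2 RefSeq starts (GRCm38.p6, plus strand, 5′ to 3′) are shown. They are chr17:29090729-29090978 for the upstream start and chr17:29093519-29093768 for the downstream start. Capitals mark the CATG pair of a p53 response element (CATG, any 6 bases, CATG) in the first and the GC box GGGCGG in the second.
Cdkn1a upstream start: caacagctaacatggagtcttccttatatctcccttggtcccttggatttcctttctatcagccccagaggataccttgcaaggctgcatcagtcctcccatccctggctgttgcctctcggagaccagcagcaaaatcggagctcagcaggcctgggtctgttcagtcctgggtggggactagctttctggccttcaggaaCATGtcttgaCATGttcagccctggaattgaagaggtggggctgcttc
Cdkn1a downstream start: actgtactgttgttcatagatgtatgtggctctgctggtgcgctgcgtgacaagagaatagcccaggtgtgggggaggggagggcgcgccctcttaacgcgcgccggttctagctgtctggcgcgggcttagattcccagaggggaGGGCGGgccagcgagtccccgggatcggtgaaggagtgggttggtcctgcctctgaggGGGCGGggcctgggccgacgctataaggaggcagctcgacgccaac
The p53 core, which reads the same on both strands, lay 48 to 35 bases before the upstream start. It was found in 0.488% of 32817 RefSeq windows of that length and in 1 of 9 windows of the inhibitor genes, for which 6 of the 7 symbols matched, all but Cdkn1c. The GC box, searched on both strands, was in 5 of those 9 windows and in 32.7% of all. The E-box CACGTG was in 0 of 9 (6.02% of all), and so was the E2F motif TTTGGCGC (0.418% of all, both strands). Matches describe these letters only.

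Cdkn1b encodes p27, the CIP/KIP inhibitor whose protein level is set largely by SCF-SKP2 degradation. It lies on GRCm38 chromosome 6 from 134920401 to 134925513. Its level was 33.5, 35.1 and 53.6 CPM in wild type, 64.2, 43.5 and 33.2 with Mx1-Cre, and 63.9 and 52.0 with Vav-Cre. The groups overlapped throughout, and Mx1-Cre 3, the library highest in Cdkn1a, had the lowest Cdkn1b of all 8. The log2 fold change was 0.21 ± 0.26 (SE) with Mx1-Cre and 0.51 ± 0.29 with Vav-Cre, neither past the threshold (edgeR adjusted p = 0.760 and 0.480). The 95% intervals of the fold were 0.775 to 1.72 and 0.916 to 2.21.

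Cdkn1c encodes p57, is imprinted and is expressed mainly from the maternal chromosome. It lies on GRCm38 chromosome 7 from 143458339 to 143461050 on the minus strand, where the antisense gene model Gm44732 overlaps an exon by 422 bases. Its level was 10.4, 17.8 and 19.8 CPM in wild type, 5.71, 4.57 and 5.11 with Mx1-Cre, and 10.3 and 11.5 with Vav-Cre. The Mx1-Cre libraries were all below the wild type ones, whereas wild type 1 lay between the 2 Vav-Cre libraries. The means were 16.0 ± 4.95 (SD, n = 3), 5.13 ± 0.571 (n = 3) and 10.9 ± 0.872 CPM (n = 2). In the Mx1-Cre libraries Cdkn1c fell 3.11-fold (log2 fold change -1.64 ± 0.27 SE, edgeR adjusted p = 0.0151). In the Vav-Cre libraries the log2 fold change was -0.56 ± 0.30 (edgeR adjusted p = 0.460), with a 95% interval of -1.22 to 0.11. The summed level of 8 stromal and endothelial markers took the same order of groups, at 127 to 160, 57.1 to 80.9 and 96.4 to 99.7 CPM. Wild type 1, lowest of its group in Cdkn1c, had the highest sum. Most of the sum was Bgn and Pecam1. Bgn, with means of 70.8, 18.1 and 31.4 CPM, was itself called lower with both lines averaged and with Mx1-Cre. Other members took other orders, with means of 53.1, 36.3 and 56.4 CPM for Pecam1 and 16.7, 11.6 and 8.49 for Col1a2. Of the 7 tested, 3 had a positive fold with Mx1-Cre and 2 with Vav-Cre. Of these markers Cdh5 had no count in the Mx1-Cre and Lepr none in the Vav-Cre libraries. The part of such cells in the fall was not tested.

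The averaged fall of Cdkn1c was 2.14-fold (log2 -1.10 ± 0.24, edgeR adjusted p = 0.0376). It passed in 2 of the 8 fits that left out 1 library, those without wild type 1 and without Mx1-Cre 2. In the other 6 the adjusted p went up to 0.208, and the log2 fold change over all 8 was -1.33 to -0.91. The Mx1-Cre fall was called in 5 of the 8, and lost without wild type 2 (edgeR adjusted p = 0.0867), wild type 3 (0.0790) or Mx1-Cre 1 (0.0612). The Vav-Cre level was 2.12-fold the Mx1-Cre level (95% interval 1.35 to 3.34), which edgeR did not call (adjusted p = 0.182) and DESeq2 did (adjusted p = 0.0361). edgeR called 0 of the 5 inhibitor genes as different between the lines, against 0.170% of tested genes (0.114% higher and 0.0568% lower in Vav-Cre). Cdkn1c alone of the 5 had an unadjusted p under 0.05 (13.3% of tested genes), and it alone was higher without overlap in Vav-Cre than in Mx1-Cre libraries (13.8%).

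**Figure D2:**
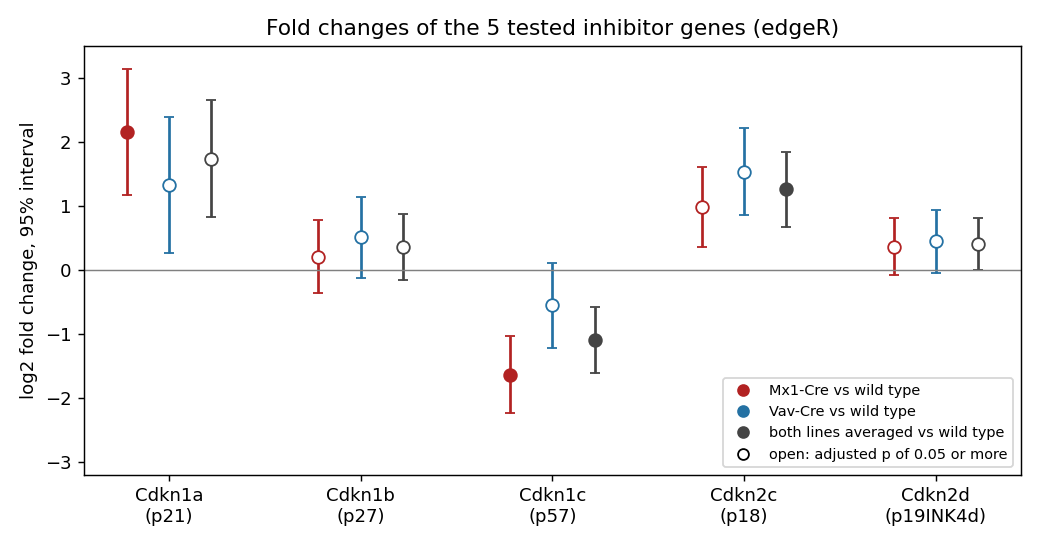
Log2 fold change against wild type with its 95% interval (vertical axis) for the 5 tested inhibitor genes, by comparison. Filled points had an edgeR adjusted p below 0.05: Cdkn1a and Cdkn1c in Mx1-Cre libraries, Cdkn1c and Cdkn2c with both lines averaged.

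Cdkn2c encodes p18, the INK4 inhibitor of CDK6 and CDK4. It lies on GRCm38 chromosome 4 from 109660876 to 109667189. Its level was 5.12, 5.38 and 5.51 CPM in wild type, 11.6, 7.65 and 12.2 with Mx1-Cre, and 11.2 and 19.8 with Vav-Cre. The wild type values were close to each other, with an SD of 0.199 CPM, and all 5 knockout libraries were above them. Vav-Cre 2 was the highest. That library also had a summed level of 6 mast cell and basophil markers of 235 CPM, against 16.2 to 42.0 in the other 7. Of that sum Fcer1a, an IgE receptor gene, gave 209 CPM, against 1.997 to 14.9 in the other knockout libraries and 0 to 0.231 in wild type. Cpa3 gave 25.2 CPM, against 14.3 to 25.5 and 8.88 to 10.05. With both lines averaged edgeR called these 2 genes higher, and the other 3 of the 5 tested markers had negative folds. Hdc was at 0.558 CPM in Vav-Cre 2, the lowest of all 8 libraries. Prss34 was at 0 in all 5 knockout libraries. The part of such cells in the result was not tested. With both lines averaged Cdkn2c rose 2.39-fold (95% interval 1.59 to 3.58, edgeR adjusted p = 0.0347). Neither line passed alone. The fold was 1.97 (1.27 to 3.04, edgeR adjusted p = 0.106) with Mx1-Cre and 2.90 (1.81 to 4.66, edgeR adjusted p = 0.0631) with Vav-Cre. DESeq2 called both, with adjusted p = 0.0217 and 0.000584. The averaged rise passed in 2 of the 8 fits that left out 1 library, those without Mx1-Cre 2 and without Vav-Cre 1, and in the other 6 the adjusted p went up to 0.162. Without Vav-Cre 2 the Vav-Cre log2 fold change went from 1.54 to 1.07.

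Cdkn2d encodes p19INK4d, another INK4 inhibitor of CDK4 and CDK6. It lies on GRCm38 chromosome 9 from 21288410 to 21291407. Its level was 10.7, 11.9 and 11.9 CPM in wild type, 16.0, 14.4 and 14.0 with Mx1-Cre, and 18.3 and 13.1 with Vav-Cre. All 5 knockout libraries were above all wild type ones, by a small margin. The averaged fold was 1.32 (95% interval 0.996 to 1.76, edgeR adjusted p = 0.311), which did not pass. Cdkn1a, Cdkn2c and Cdkn2d were thus the 3 of 5 with no overlap in the higher direction over all 5 knockout libraries, against 4.41% of tested genes, and 0 of 5 were lower without overlap (7.28%). In the Mx1-Cre libraries the same 3 were higher without overlap (10.9% of tested genes) and Cdkn1c was lower without overlap (14.8%). In the Vav-Cre libraries those 3 were again higher without overlap (15.6%).

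**Figure D3:**
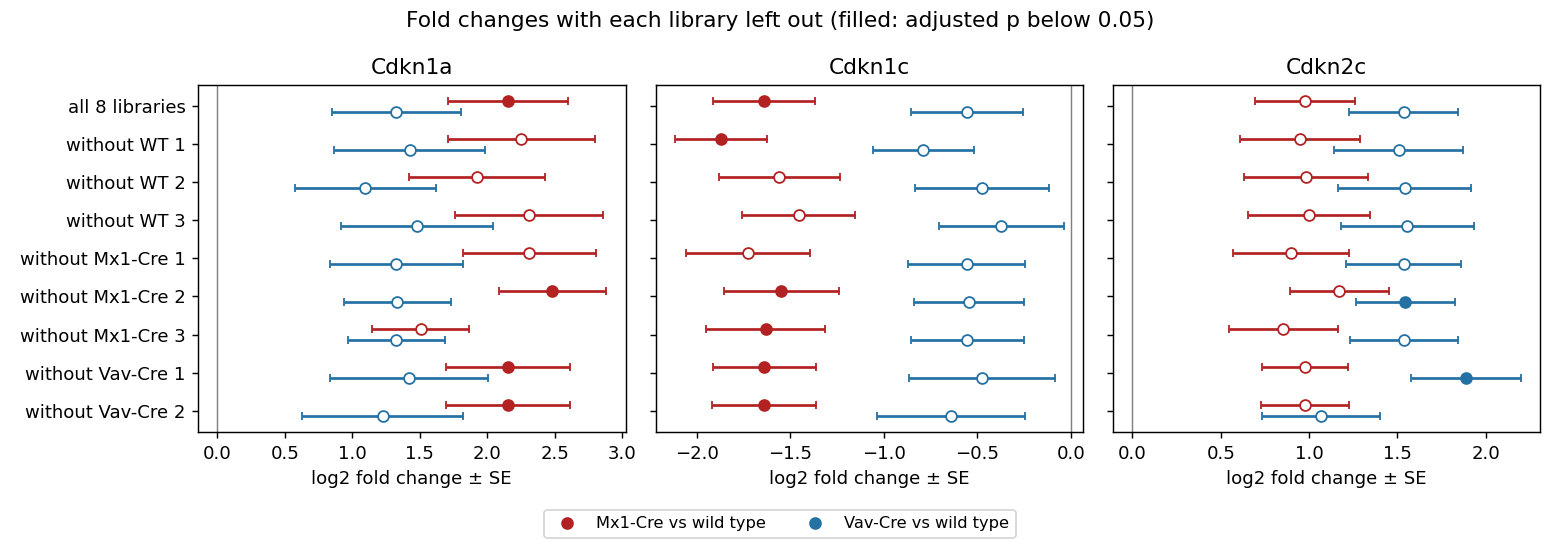
Log2 fold change ± SE (horizontal axis) of Cdkn1a, Cdkn1c and Cdkn2c with all libraries and with each left out, filled where the edgeR adjusted p was below 0.05 (red Mx1-Cre, blue Vav-Cre, each against wild type). No sign changed in the rows shown, and values ran from 1.10 to 2.48 for Cdkn1a, -1.87 to -0.37 for Cdkn1c and 0.85 to 1.89 for Cdkn2c.

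Cdkn2a, which encodes p16INK4a and, from another reading frame, p19ARF, and Cdkn2b, which encodes p15INK4b, lie next to each other on GRCm38 chromosome 4. Cdkn2a spans 89274471 to 89294653 and Cdkn2b spans 89306299 to 89311039. Cdkn2a had 1 read, in Mx1-Cre 3, and 0 in the other 7 libraries. Of the 4 reads of Cdkn2b, wild type 3 and Mx1-Cre 1 each held 1 and Vav-Cre 2 held the other 2. In a library with 0 reads a limit of 3 counts allows up to 0.0926 to 0.109 CPM, for counting error only. These transcripts were at or near 0 in every group, and no fold is given.

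Scaled by length (CPM per kb of GENCODE exons on GRCm38), the order of the 5 measurable inhibitors differed between the groups. In wild type Cdkn1b (7.36 to 11.8 CPM per kb), Cdkn1c (5.35 to 10.2) and Cdkn2d (7.25 to 8.10) overlapped at the top. Cdkn2c (1.91 to 2.05) lay below them and Cdkn1a was lowest (0.676 to 1.25). In the Mx1-Cre libraries Cdkn1b (7.30 to 14.1) and Cdkn2d (9.50 to 10.9) had the highest means, and Cdkn1b overlapped the top of Cdkn1a. Cdkn1a (2.34 to 7.91), Cdkn2c (2.85 to 4.56) and Cdkn1c (2.35 to 2.94) overlapped below. Cdkn1c, near the top in wild type, had the lowest mean there, 2.64 CPM per kb. In the Vav-Cre libraries Cdkn1b (11.4 to 14.0) and Cdkn2d (8.87 to 12.4) overlapped, as did Cdkn2c (4.16 to 7.36) and Cdkn1c (5.29 to 5.92), and Cdkn1a was lowest (2.41 to 2.76). Lengths are those of current gene models, which may differ from the models counted.

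**Figure D4:**
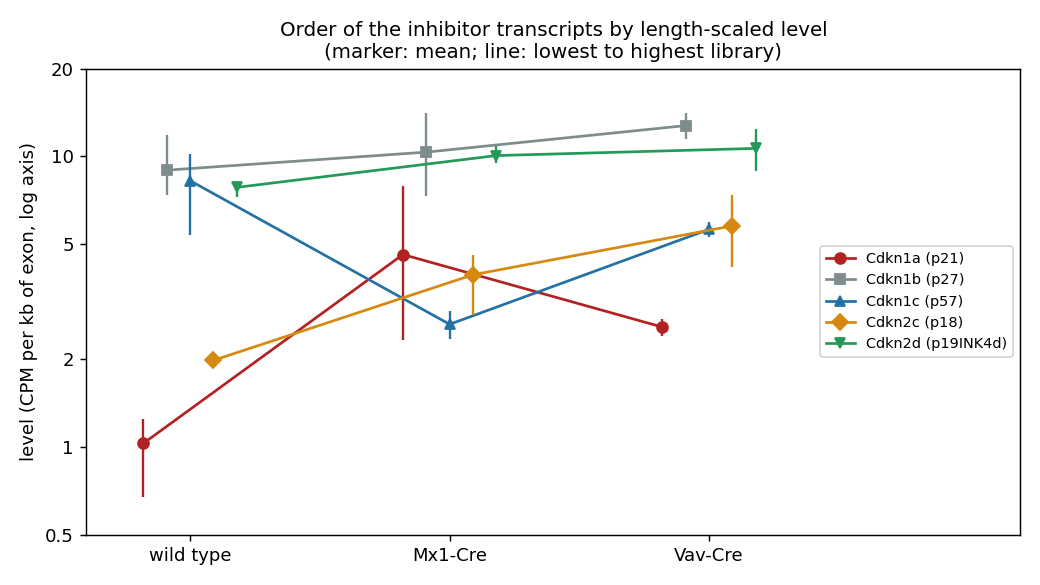
Length-scaled level (CPM per kb of exon, log axis) of the 5 measurable inhibitor transcripts in each group, with markers for means and lines from the lowest to the highest library, joined only to guide the eye. Cdkn1c goes from 8.23 in wild type to 2.64 with Mx1-Cre and 5.60 with Vav-Cre, while Cdkn1a goes from 1.03 to 4.59 and 2.58.

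Ratios of 2 inhibitor transcripts within a library do not depend on the scaling between libraries, and they restate the levels above without showing which of the 2 genes moved. The ratio of Cdkn1a to Cdkn1c reads was 0.305, 0.104 and 0.171 in wild type, 1.68, 1.39 and 4.21 with Mx1-Cre, and 0.638 and 0.652 with Vav-Cre. The 3 groups did not overlap, with Vav-Cre between the others. The ratio of Cdkn2c to Cdkn1c reads was 0.492, 0.303 and 0.278 in wild type, 2.03, 1.67 and 2.40 with Mx1-Cre, and 1.09 and 1.72 with Vav-Cre. Here the knockout lines overlapped each other and lay above wild type. The ratio of Cdkn1a to Cdkn2c reads was 0.619, 0.341 and 0.616 in wild type, 0.824, 0.829 and 1.76 with Mx1-Cre, and 0.586 and 0.379 with Vav-Cre. That ratio was above wild type in every Mx1-Cre library and within the wild type range in both Vav-Cre libraries. These ratios are a description with no test, and their size also depends on transcript length.

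**Figure D5:**
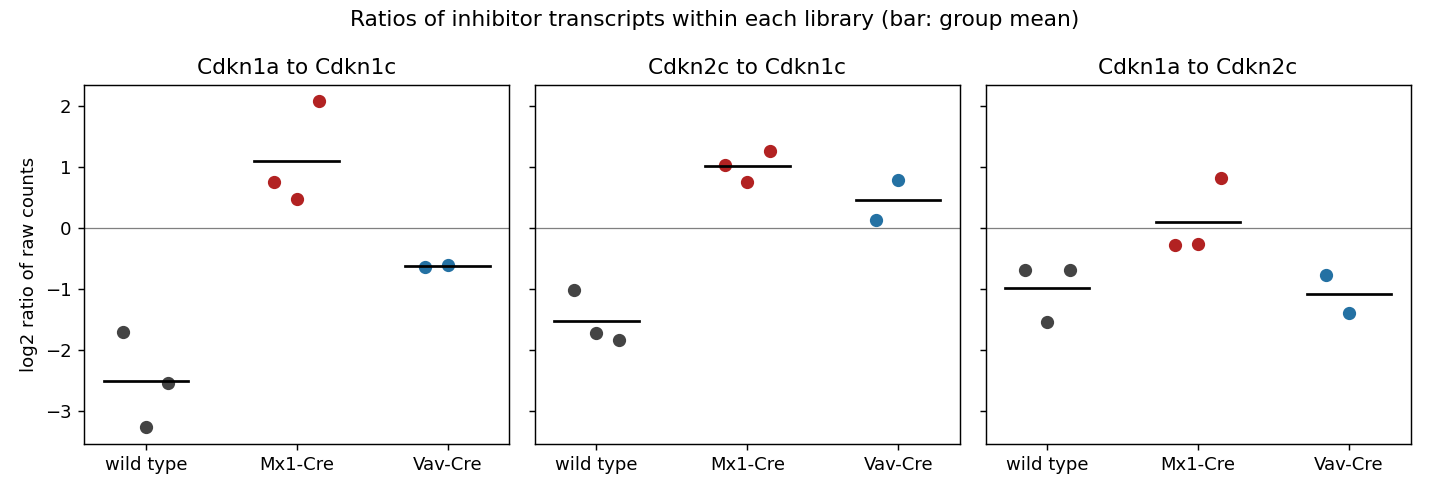
Log2 ratio of raw read counts of 2 inhibitor genes within each library (points) with the group mean (bar). Cdkn1a to Cdkn1c averages -2.51 in wild type, 1.10 with Mx1-Cre and -0.63 with Vav-Cre, and Cdkn1a to Cdkn2c averages -0.98, 0.09 and -1.08.

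The kinases and cyclins that the inhibitors bind showed no called change. Of 13 listed genes 12 were tested, and 0 passed in edgeR in each of the comparisons with wild type, with 1, 3 and 1 at an unadjusted p under 0.05 for both lines averaged, Mx1-Cre and Vav-Cre. Over all tested genes the shares at such a p were 16.5%, 16.6% and 13.4%, against which the counts of the other lists are also to be read. The list's median log2 fold change was 0.33 with Mx1-Cre, with 12 of 12 positive, and -0.04 with Vav-Cre, against 0.01 and -0.01 over all tested genes. Cdk6, a kinase that p18 binds, had the smallest p. Its level was 46.2, 40.7 and 38.8 CPM in wild type, 90.2, 46.3 and 79.4 with Mx1-Cre, and 45.5 and 104 with Vav-Cre. One Vav-Cre library overlapped wild type, and the averaged log2 fold change of 0.81 ± 0.28 (SE) did not pass (edgeR adjusted p = 0.180).

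RB proteins and E2F factors, which act downstream of the CDKs, also had 0 of 13 called in each comparison. An unadjusted p under 0.05 was found for 2, 6 and 0 of them (16.5%, 16.6% and 13.4% of all tested genes). E2f2, an activating E2F, had the smallest p of them. Its averaged log2 fold change was 0.92 ± 0.29 (edgeR adjusted p = 0.140). Of 20 proliferation genes 0 were called in each comparison, with 1, 8 and 0 at an unadjusted p under 0.05. Their folds were positive for 20 of 20 genes in Mx1-Cre libraries (median 0.46) and for 6 of 20 with Vav-Cre (median -0.15), against 51.3% and 49.0% of all tested genes. Between the lines 0 of 20 were higher with Vav-Cre than with Mx1-Cre. There 13 of 20 had an unadjusted p under 0.05, against 13.3% of tested genes, and edgeR called 0. For most of the 20 genes Vav-Cre 1 lay above wild type and Vav-Cre 2 below it. Mki67 was at 576 to 646 CPM in wild type, 962 in Vav-Cre 1 and 465 in Vav-Cre 2. Rrm1 was at 505 to 597, 662 and 367 CPM. Plk1 was below wild type in both and Cdc20 within its range in both. The Vav-Cre median and the difference between the lines thus rest on 2 unlike libraries. Mcm7, a replicative helicase subunit, had the smallest p of the 20 with both lines averaged, at 0.31 ± 0.12 (edgeR adjusted p = 0.219). Its log2 fold change was 0.53 ± 0.13 with Mx1-Cre (edgeR adjusted p = 0.0665) and 0.10 ± 0.15 with Vav-Cre (0.841). The higher Cdkn1a and lower Cdkn1c of the Mx1-Cre libraries thus stood beside positive folds of proliferation genes, whose part was not tested. Of 11 genes for ubiquitin ligase parts that degrade CIP/KIP proteins 0 were called, with 0, 2 and 0 at an unadjusted p under 0.05. The scaffold gene Cul4a had the smallest p, with an averaged 0.24 ± 0.12 (edgeR adjusted p = 0.372).

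Among p53 and 24 of its target genes, all 25 of which were tested, 3 were called higher and 0 lower with both lines averaged, against 0.547% and 2.10% of all tested genes. In Mx1-Cre libraries 2 were called higher (0.390%) and in Vav-Cre libraries 1 (0.192%), and none lower in edgeR in either. At an unadjusted p under 0.05 were 9 and 6 (16.6% and 13.4%). Zmat3, which encodes an RNA-binding zinc finger protein, was at 10.9, 8.63 and 12.4 CPM in wild type, 52.99, 36.1 and 49.3 with Mx1-Cre, and 34.6 and 64.9 with Vav-Cre. It rose in each line (log2 fold change 2.12 ± 0.26 and 2.23 ± 0.28, edgeR adjusted p = 0.00506 and 0.0154). Eda2r, a receptor gene, was at 3.24, 3.97 and 4.39 CPM in wild type, 7.53, 10.7 and 12.1 with Mx1-Cre, and 7.71 and 12.4 with Vav-Cre. It rose with both lines averaged (1.38 ± 0.27, edgeR adjusted p = 0.0291). Trp53inp1, a stress-induced p53 cofactor gene, rose as well (0.70 ± 0.14, edgeR adjusted p = 0.0272). The median fold of the list was 0.21 on the log2 scale, against 0.00 over all tested genes, and 9 of its 25 genes had a negative fold. Among these Fas, a death receptor gene chosen after its values were seen, was at 10.4, 7.88 and 5.79 CPM in wild type, 3.798, 4.57 and 5.004 with Mx1-Cre, and 4.45 and 2.36 with Vav-Cre. All 5 knockout libraries were below wild type, and its fold of -1.04 ± 0.30 did not pass (edgeR adjusted p = 0.104).

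Regulators upstream of the inhibitor genes were taken as further lists. Of 19 transcriptional regulators of CIP/KIP genes 3 fell and 0 rose with both lines averaged, against 2.10% and 0.547% of all tested genes. With Mx1-Cre 2 fell, Gfi1 and Ndn (2.10% of tested genes), and with Vav-Cre edgeR called 0, with 5 at an unadjusted p under 0.05 (13.4%). Ndn, which encodes the growth suppressor necdin, was at 21.6, 27.9 and 31.5 CPM in wild type, 4.82, 6.93 and 4.33 with Mx1-Cre, and 12.2 and 8.49 with Vav-Cre (-1.86 ± 0.23, edgeR adjusted p = 0.00491). Gfi1, a repressor that restrains stem cell division, had 15.6, 16.4 and 12.7 CPM in wild type, 7.38, 5.62 and 7.13 with Mx1-Cre, and 9.88 and 7.93 with Vav-Cre (-0.95 ± 0.20, edgeR adjusted p = 0.0354). Klf4, a factor known to activate Cdkn1a in other cells, had 14.0, 13.1 and 11.1 CPM in wild type, 4.63, 6.71 and 3.98 with Mx1-Cre, and 1.75 and 5.14 with Vav-Cre (-1.60 ± 0.33, edgeR adjusted p = 0.0339). Of 21 Polycomb and other regulators of the INK4 locus 0 were called in each comparison, with 2, 3 and 1 at an unadjusted p under 0.05. Ezh2, the Polycomb methyltransferase gene, had the smallest p, with an averaged 0.45 ± 0.15 (edgeR adjusted p = 0.159).

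Of 12 listed genes around Cdkn1c on chromosome 7, 10 were tested, and 1 fell, Igf2, with both lines averaged (2.10% of all tested genes were called lower). On GRCm38 Igf2 spans 142650766 to 142666816 and H19 spans 142575529 to 142578143. Both lie farther from Cdkn1c than Kcnq1ot1, which spans 143203458 to 143296549. With both lines averaged 7 of the 10 had a negative fold and the median was -0.16 on the log2 scale, against 0.00 over all tested genes. At an unadjusted p under 0.05 were 2, 3 and 4 for both lines averaged, Mx1-Cre and Vav-Cre. Igf2, a growth factor gene, had 3, 26 and 46 reads in wild type, 1, 0 and 1 with Mx1-Cre, and 0 and 0 with Vav-Cre, so the call rests on few reads and the levels are near the floor. H19, chosen after its values were seen, had 0, 55 and 49 reads in wild type, 0, 0 and 0 with Mx1-Cre, and 9 and 0 with Vav-Cre. Wild type 1, which had the lowest Cdkn1c of its group, thus also had the lowest Igf2 and H19. Kcnq1ot1, the noncoding RNA that silences Cdkn1c on the paternal chromosome, had an averaged log2 fold change of 0.15 ± 0.10 (edgeR adjusted p = 0.506). Its neighbour Phlda2 had 0.07 ± 0.27 (edgeR adjusted p = 0.937). Slc22a18, a transporter gene beside Cdkn1c, was at 13.2, 20.3 and 17.98 CPM in wild type, 7.41, 14.2 and 9.80 with Mx1-Cre, and 15.4 and 14.5 with Vav-Cre (-0.46 ± 0.24, edgeR adjusted p = 0.383). Wild type 1 was again the lowest of its group. These 3 were chosen after their values were seen, and none passed the test.

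The genes whose pattern over the 8 libraries was most like that of each moving inhibitor were ranked by the root mean square difference of centred log2 CPM, over 9580 other genes. For Cdkn1c they were the adhesion gene Amigo2 (0.16), the hypoxia factor gene Hif3a (0.17) and Snn (0.22), against a median of 0.79 over all genes compared. For Cdkn2c they were the corepressor genes Nab2 (0.22) and Tle3 (0.25) and the glutathione synthesis gene Gclm (0.23), in the order Nab2, Gclm, Tle3, against 0.69. For Cdkn1a they were E2f2 (0.51), Zmat3 (0.54) and Nab2 (0.58), against 1.02, so the nearest pattern to Cdkn1a was farther off than those to Cdkn1c and Cdkn2c. Nab2 was among the nearest of both Cdkn1a and Cdkn2c.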

How the data were processed

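RNA-seq of 8 sorted stem cell samples was used, grouped by title into 3 wild type, 3 Mx1-Cre and 2 Vav-Cre samples. A SMARTer low input kit made the cDNA and the libraries carry no strand, per the labels' protocols. Per the submitters' processing notes, the tools were HTSeq, edgeR, TopHat and SAMtools and the build was mm9, while their versions and the annotation were not given in the sources used here. One deposited table gives raw counts of reads by gene, without molecular identifiers. The deposited CPM table gives those counts scaled to library size for 12457 genes, equal to them within 5.11e-15 (relative), lists 5 of the 7 inhibitor genes and was not tested separately.

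Counts were tested with edgeR 4.0.16 (R 4.3.3), by the quasi-likelihood test, after filterByExpr (minimum count 10, minimum total 15) and TMM scaling, fitting all 8 libraries together by group. Adjusted p-values are Benjamini-Hochberg over 14086 genes, called below 0.05. Levels are TMM-scaled CPM, SE is the absolute log2 fold change over the square root of F, and log2 CPM used a prior count of 2. Intervals (95%) come from that SE. The fit was tested on simulated counts. Alternatives were DESeq2 1.42.0, limma-voom (limma 3.58.1), other scalings, no filter, a threshold of 0.1, a replicate block, only the groups compared and each library left out. The members and lists were chosen with earlier results of these data known. Named genes were all 7 inhibitors, up to 4 called members per list (or that with the smallest p) and the 3 nearest patterns of 3 inhibitors. Promoters are from RefSeq (GRCm38.p6), gene models from GENCODE M21 (GRCm38), and neither was joined to mm9 coordinates. The result for 1 marker gene is not reported here.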

Additional observations from a re-analysis of the deposited data

How the results depend on the processing

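Leaving out 1 library at a time gave 22 to 502 called genes for both lines averaged (373 with all libraries), 58 to 565 for Mx1-Cre (351), 5 to 196 for Vav-Cre (72) and 3 to 412 for the difference between the lines (24). The inhibitor genes called were then 0 to 3 for both lines averaged, 0 to 2 for Mx1-Cre and 0 to 1 for Vav-Cre. The lowest counts, 22, 58 and 5, came without wild type 2. DESeq2 called 951, 1040, 593 and 461 genes in these 4 comparisons. Among the inhibitors it called 1 for Vav-Cre (Cdkn2c) and 1 for the difference (Cdkn1c). With both lines averaged it added Cdkn1a to the inhibitor calls of edgeR, and with Mx1-Cre it added Cdkn2c. limma-voom with quality weights called 679 for both lines averaged, 1815 for Mx1-Cre, 69 for Vav-Cre and 102 for the difference. A threshold of 0.1 gave 714, 701, 236 and 76, with 1 inhibitor for Vav-Cre. Without a filter on low counts 174 genes were called for Vav-Cre, 1 of them an inhibitor, and 81 for the difference. Fitting only the groups compared gave 575, 111 and 3 for Mx1-Cre, Vav-Cre and the difference. The cause was not tested.

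Same-numbered libraries did not deviate together (correlations -0.0705 to 0.129), so the numbers were not taken to pair them. A replicate block gave 218, 235, 20 and 9 called genes in the 4 comparisons and 1 inhibitor gene for both lines averaged, Cdkn1a (edgeR adjusted p = 0.0300), while Cdkn1c (0.0917) and Cdkn2c (0.0653) lost their calls there. The block changed no inhibitor call in the other 3 comparisons, and RLE or upper quartile scaling changed none in the 3 comparisons with wild type.

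Signs reversed only for changes that never passed. Cdkn1b with Mx1-Cre went from 0.21 to -0.0863 without Mx1-Cre 1 and ranged from that to 0.45. The Cdkn2d difference between the lines went from 0.08 to -0.0057 with limma-voom and ranged from -0.18 to 0.30 with 1 library left out. Of 315 alternative values for the 5 inhibitors, 276 kept direction and call, 22 lost a call, 14 gained one and 3 reversed.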
